A study of Mus musculus with 33 samples.

Results

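The RUNX transcription factors and their shared partner CBF beta were followed through 33 RNA-seq libraries of mouse ovary. The set held 4 genes, Runx1, Runx2, Runx3 and Cbfb, chosen by symbol from the 54347 gene identifiers of the deposited table, and each symbol matched 1 identifier. All 4 passed the filter on low counts in every experiment.

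RUNX proteins are transcription factors that bind DNA through a runt domain, and CBF beta, which does not itself touch DNA, pairs with each of them and strengthens their binding. RUNX1 is known as a regulator of blood stem cells, RUNX2 of bone formation and RUNX3 of T cells and sensory neurons. In rodent ovaries, Runx1 and Runx2 are known to be induced in granulosa cells of the ovulatory follicle by the luteinizing hormone surge, and Runx2 and Cbfb are known from mouse studies to be needed for normal formation of the corpus luteum, the progesterone-making body that replaces the ovulated follicle.

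The libraries came from 3 experiments on follicle-stimulating hormone (FSH), whose beta subunit is encoded by Fshb. Experiment 1 held ovaries labelled WT, Fshb(+/-) and Fshb(-/-), with 3 libraries each. Experiment 2 held ovaries labelled Fshb(-/-) and Fshb(-/-) HFSHB, the latter carrying a human FSHB transgene on the null background and called the rescue here, with 4 libraries each. Experiment 3 held 4 groups of 4 libraries whose cycle stage was labelled DE, PE, E or KO (anestrus); all of them carry the genotype label WT, although the stage label of the last names a knockout. Estrous stage is not given for experiments 1 and 2, and ages, the promoter of the transgene, and whether a library came from 1 animal or a pool are likewise not stated. The p-values therefore measure the spread between these libraries, which may be partly technical.

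Total counts per library ran from 13587252 to 16931710 in experiment 1, from 19633256 to 23700051 in experiment 2 and from 10085367 to 15925103 in experiment 3. Fshb itself did not follow its labels: it had 0 to 1 count in the libraries labelled WT, 43 to 106 in those labelled Fshb(+/-), 68 to 82 and 119 to 184 in those labelled Fshb(-/-) in experiments 1 and 2, and 221 to 431 in the rescue. In experiment 3 it had 90 to 114 counts in KO (anestrus), 60 to 198 in DE, 0 to 51 in PE and 0 to 170 in E. Which part of the gene the null allele lacks is not stated, so all groups below are named by their labels only. The summed markers of granulosa cells, oocytes and luteal cells were each above 0 in every library, as the ovary label states. The luteal marker Akr1c18 alone reached 0 CPM in Fshb(-/-) of experiment 2 and in KO (anestrus). Oviduct epithelium markers, summed over 11 genes in CPM (counts scaled to library size), reached 3370 to 5790 in the 4 PE libraries, 3520 to 7680 in DE libraries 1, 2 and 4 and 4880 in E library 3. They were 22.5 in DE library 3, 11.3 to 19.1 in the other E libraries and 33.5 to 76.9 in KO (anestrus). Stage and oviduct tissue cannot be told apart in experiment 3 for groups that differ in both.

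The promoters of the 3 Runx genes carried a common element. In RefSeq promoters of GRCm38.p6, which span 250 bases before to 50 bases after a start, an identical run of 18 bases lay at the distal start of Runx1, Runx2 and Runx3. It is shown within 30 bases of each gene, because the run is a sequence that all 3 promoters hold. The bases around it are not the same in all 3, although most of those printed before it are alike in Runx1 and Runx2. They are written 5′ to 3′ on the gene's strand, with capitals marking the RUNX core motif TGTGGT or TGCGGT on either strand (read as ACCACA or ACCGCA on the other).

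Runx1, chr16:92826025-92826054, minus strand: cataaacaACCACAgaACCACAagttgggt
Runx2, chr17:44814583-44814612, minus strand: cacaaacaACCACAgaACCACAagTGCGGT
Runx3, chr4:135120503-135120532, plus strand: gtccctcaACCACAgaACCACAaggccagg

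The shared run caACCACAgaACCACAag holds 2 motifs in tandem. It lay 27 to 44 bases downstream of the start in Runx1 and 22 to 39 bases downstream in Runx2, and between positions -136 and -119 in Runx3. Of 32851 promoters in the table, 4 held the run, and their genes were Runx1, Runx2, Runx3 and Gm16225. The motif itself is common, since 22.4% of all promoters held it. Of the 6 promoters of the 4 genes, 3 held it, namely the distal ones of Runx1 with 2 sites, Runx2 with 4 and Runx3 with 2. The proximal promoters of Runx1 and Runx3 and the only promoter listed for Cbfb had none. A match is a description of letters and does not show binding.

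In GRCm38, Runx1 lies on chromosome 16 from 92601466 to 92826149 (minus strand, ENSMUSG00000022952.17) and Runx2 on chromosome 17 from 44495987 to 44814797 (minus strand, ENSMUSG00000039153.17). Runx3 lies on chromosome 4 from 135120652 to 135177990 (plus strand, ENSMUSG00000070691.10) and Cbfb on chromosome 8 from 105170674 to 105217989 (plus strand, ENSMUSG00000031885.14). Runx2 is overlapped on the opposite strand by the protein-coding gene Supt3 and by antisense transcripts. The strand setting of the counting is not stated, so a share of antisense reads in Runx2 cannot be separated. Supt3 had group means between 17.3 and 25.6 CPM in all 9 groups, and the antisense gene Runx2os1 had at most 10 counts in a library.

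Of the 4 genes, Runx2 varied most over the 33 libraries. It ran from 2.42 to 293 CPM, a 121-fold range, against a 51.6-fold range for Runx3 (0.456 to 23.5 CPM), a 6.58-fold range for Runx1 (30.2 to 199 CPM) and a 2.52-fold range for Cbfb (74.3 to 188 CPM). All CPM values were scaled by the trimmed mean of M-values (TMM). The lowest count of any of the 4 genes in a library was 8, for Runx3, and the lowest for Runx2 was 31.

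**Figure D1:**
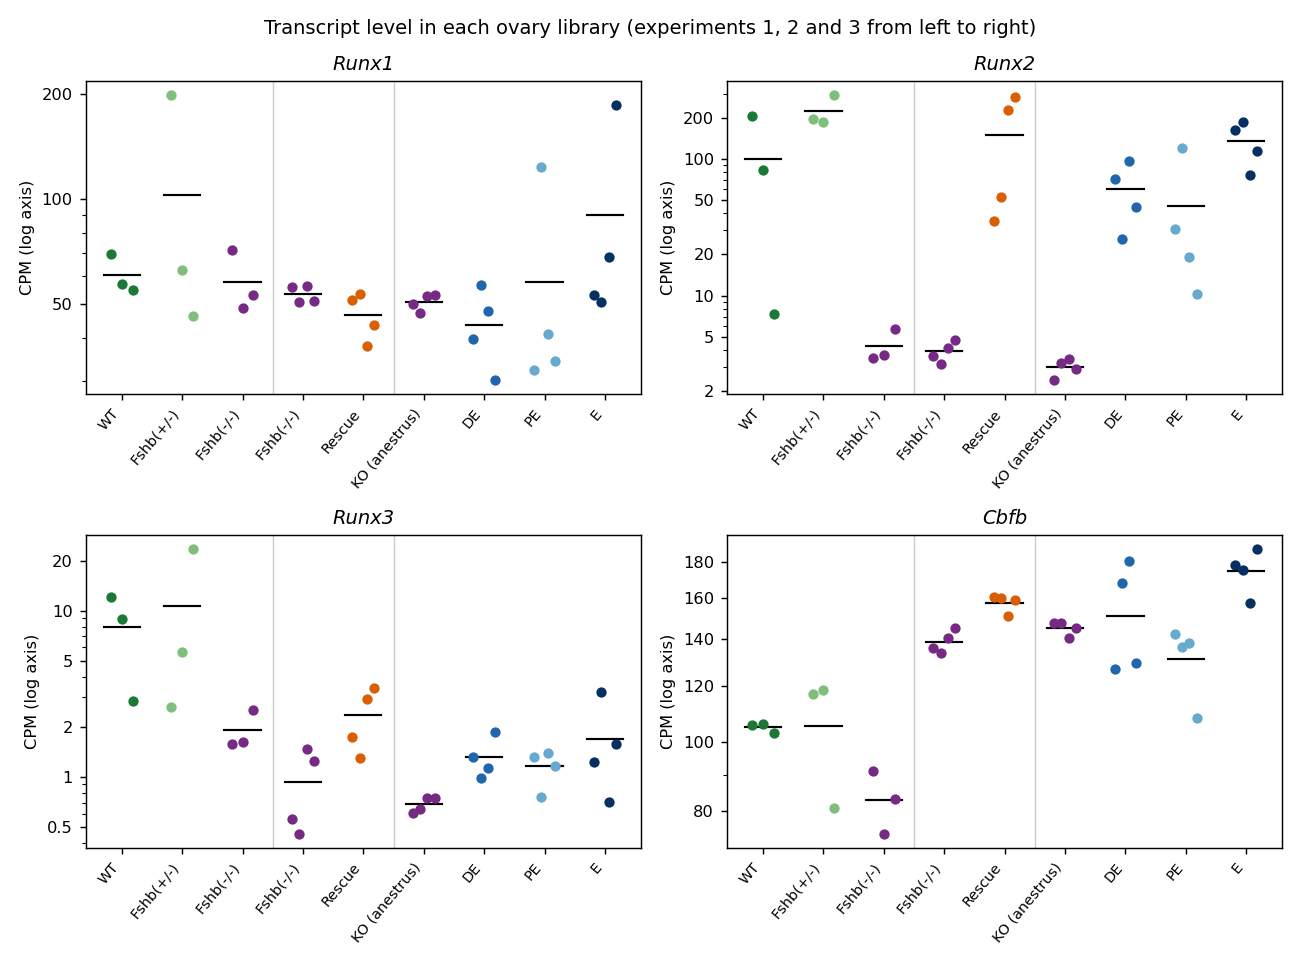
CPM of Runx1, Runx2, Runx3 and Cbfb (log axis) in each of 33 ovary libraries, by group; points are libraries, horizontal lines are group means and vertical lines separate experiments 1, 2 and 3. Runx2 stays between 2.42 and 5.72 CPM in the 11 libraries labelled Fshb(-/-) or KO (anestrus) and lies at 7.36 CPM or above in every other library.

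Runx2, the gene known for its role in bone and in luteinizing granulosa cells, separated the groups labelled Fshb(-/-) or KO (anestrus) from all other groups. In the 3 libraries labelled Fshb(-/-) of experiment 1 it was at 3.51, 3.66 and 5.72 CPM. In the 4 of experiment 2 it was at 3.61, 3.15, 4.12 and 4.74 CPM, and in KO (anestrus) at 2.42, 3.20, 3.42 and 2.89 CPM. These 11 libraries lay in a narrow low band, and in no experiment did it overlap with the other groups. In the order of the 9 group means, the gap between PE (45.3 ± 51.0 CPM, SD, n = 4) and Fshb(-/-) of experiment 1 (4.30 ± 1.23 CPM, n = 3) was the only one across which neighbouring ranges stayed apart. Levels of different experiments were set side by side as a description only.

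In experiment 1, Runx2 was at 207, 83.5 and 7.36 CPM in the libraries labelled WT and at 195, 187 and 293 CPM in those labelled Fshb(+/-). WT library 3 lay close to the Fshb(-/-) libraries, and the other 2 lay far above them. Runx2 fell in Fshb(-/-) against WT, with a change of -4.52 ± 1.04 (SE) on the log2 scale and an adjusted p of 0.04 in edgeR, the 1 call among the 4 genes where 7.87% of 17223 tested genes were called. This call ended when any one of the 3 Fshb(-/-) libraries or WT library 1 or 2 was left out, with an adjusted p of up to 0.14, and without WT library 1 the change was -3.39. Without WT library 3 it was -5.07, with an adjusted p of 0.0025. Against Fshb(+/-) the fall was -5.70 ± 1.09 (edgeR, adjusted p = 0.012), again the 1 call among the 4 genes, with 17.0% of all genes called. Without Fshb(-/-) library 1 this adjusted p was 0.056. Between Fshb(+/-) and WT, Runx2 differed by 1.18 (95% interval -0.84 to 3.20; edgeR, adjusted p = 0.71). Without WT library 1 the difference was 2.31 and without WT library 3 it was 0.63. In this comparison none of the 4 genes was called where 15 genes, 0.0871%, were. At an unadjusted p under 0.05 that comparison held 1783 genes, none of them a RUNX gene or Cbfb, and DESeq2 called 362.

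In experiment 2, Runx2 was at 35.2, 52.8, 229 and 283 CPM in the rescue. The rescue libraries fell into a lower and a higher pair, and all 4 lay above every Fshb(-/-) library. Runx2 rose 38.4-fold in the rescue, by 5.26 ± 0.85 on the log2 scale (95% interval 3.24 to 7.28; edgeR, adjusted p = 0.0046). Cbfb was the other called gene, so that 2 of 4 were called beside 31.9% of 16871 tested genes. The change from Fshb(-/-) to the rescue was set against the change from Fshb(-/-) to WT in 1 fit over both experiments. The difference for Runx2 was 0.73 ± 1.27 (95% interval -2.0 to 3.45; edgeR, adjusted p = 0.96), an interval too wide to place the rescue above or below WT. None of the 4 genes was called there, with 0.153% of all genes called.

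In experiment 3, Runx2 was at 71.8, 25.8, 97.4 and 44.3 CPM in DE, at 30.8, 121, 19.2 and 10.4 CPM in PE and at 162, 186, 76.4 and 115 CPM in E. All 12 of these libraries lay above the KO (anestrus) libraries, and the lowest was PE library 4. Runx2 rose against KO (anestrus) by 4.32 ± 0.72 in DE (edgeR, adjusted p = 0.0014), by 3.93 ± 0.72 in PE (adjusted p = 0.0018) and by 5.5 ± 0.75 in E (adjusted p = 0.00029), all on the log2 scale. These 3 comparisons share the KO (anestrus) libraries. In DE and in PE it was the only 1 of the 4 genes called, with 25.1% and 33.8% of 16944 genes called, and in E it was 1 of 2, with 18% (3042 genes). Without DE library 3 and E library 3, a choice made after seeing the data, Runx2 rose by 4.03 in DE (edgeR, adjusted p = 0.0016) and by 5.73 in E (adjusted p = 0.00058).

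Between cycling stages Runx2 did not pass the test. It was higher in E than in PE by 1.57 ± 0.61 on the log2 scale (95% interval 0.27 to 2.88; edgeR, adjusted p = 0.22), and the ranges overlapped because PE library 2 was at 121 CPM. Without that library the difference was 2.74, with an adjusted p of 0.018. DE minus E was -1.17 (95% interval -2.46 to 0.12, adjusted p = 0.5) and DE minus PE was 0.40 (-0.89 to 1.68, adjusted p = 1.0). In these 3 comparisons edgeR called 0 of 16944 genes, 0.0% of all genes in each. At an unadjusted p under 0.05 they held 3170 genes for E minus PE, 1796 for DE minus E and 407 for DE minus PE, and DESeq2 called 363, 8 and 0.

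**Figure D2:**
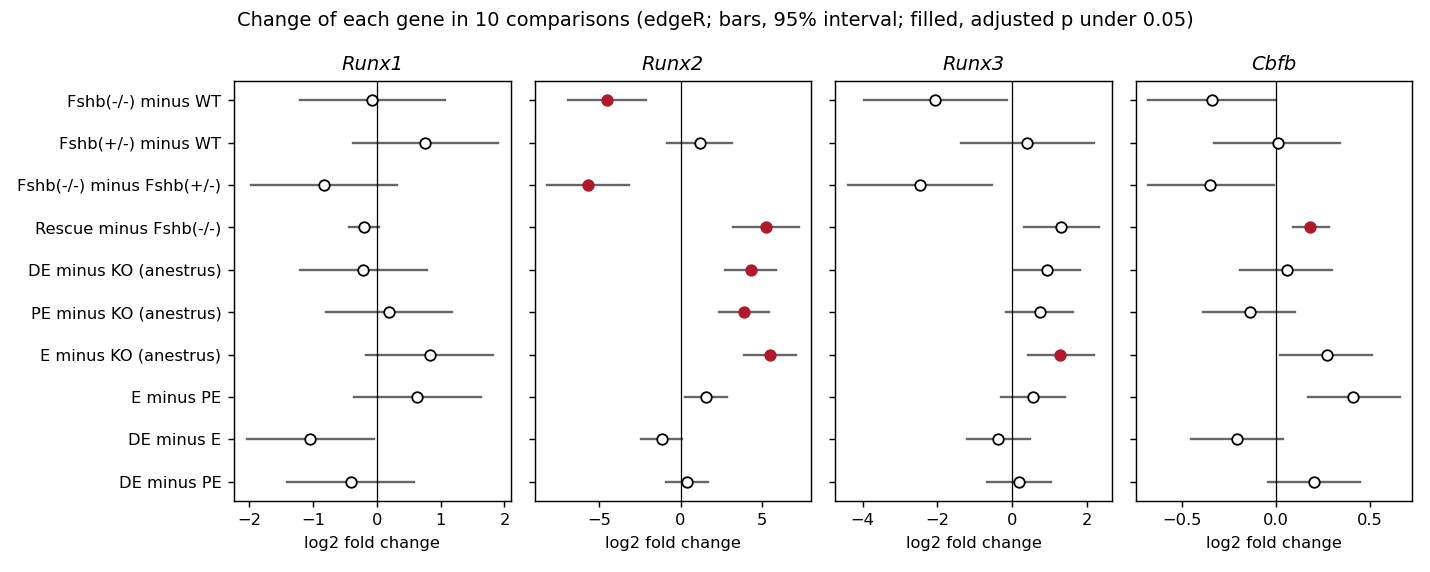
Log2 fold change (x axis) of Runx1, Runx2, Runx3 and Cbfb in 10 comparisons (rows), from edgeR; points are estimates, bars are 95% intervals, and filled points have an adjusted p under 0.05. Runx2 has 6 filled points, from -5.70 to 5.5, Runx3 and Cbfb have 1 each and Runx1 has none; the x axes differ between genes.

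The summed level of luteal markers moved with Runx2, but not every marker did. The list held 10 genes, among them Sfrp4, a secreted WNT antagonist, and Ptgfr, the receptor through which prostaglandin F2 alpha ends luteal life. Their summed level was 4150 to 4970 CPM in Fshb(-/-) against 7250 to 19100 CPM in WT and 13200 to 26300 CPM in Fshb(+/-), and WT library 3, the one with little Runx2, was the one at 7250. Against WT, Cyp11a1 was called lower in Fshb(-/-) (edgeR, adjusted p = 0.038). Ptgfr (adjusted p = 0.054), Sfrp4 (0.071), Prlr (0.11) and Lhcgr (0.5) did not pass there. In experiment 2 the sum was 4200 to 5240 CPM in Fshb(-/-) and 10300 to 28900 CPM in the rescue, where 9 of 10 markers rose and none fell, beside 31.9% of all genes called in either direction. In experiment 3 it was 3290 to 4300 CPM in KO (anestrus), 5550 to 12200 CPM in DE, 4630 to 10900 CPM in PE and 7420 to 23500 CPM in E, with 6, 6 and 8 of 10 markers raised and none lowered, beside 25.1%, 33.8% and 18% of all genes called. Lhcgr did not rise in DE or PE, with means of 293 and 241 CPM against 295 CPM in KO (anestrus). Its mean was 641 CPM in E, but the E libraries, at 215 to 1245 CPM, overlapped with KO (anestrus), at 241 to 367 CPM. Oocyte markers stood the other way: their sum over 12 genes was 713 to 889 CPM in Fshb(-/-) against 373 to 457 CPM in WT, 722 to 1120 CPM against 336 to 495 CPM in the rescue, and 936 to 1120 CPM in KO (anestrus) against 138 to 605 CPM in the cycling stages. Endothelial markers, summed over 10 genes, were lower in the groups with little Runx2 and did not overlap with the others: 407 to 499 CPM in Fshb(-/-) against 589 to 662 CPM in WT, 385 to 425 CPM against 483 to 677 CPM in the rescue, and 398 to 439 CPM in KO (anestrus) against 471 to 698 CPM in the cycling stages. Single genes of this list differed from the sum. Vwf was higher in Fshb(-/-), at 50.5 to 78.5 CPM against 27.6 to 39.6 CPM in WT and 45.3 to 60.3 CPM against 24.3 to 32.0 CPM in the rescue. Erg overlapped between Fshb(-/-) and WT (15.4 to 17.2 and 16.1 to 17.8 CPM). Macrophage markers were at 277 to 396 CPM in Fshb(-/-) and 405 to 748 CPM in the rescue, and at 290 to 417 CPM in Fshb(-/-) against 428 to 669 CPM in WT, but overlapped in experiment 3 between KO (anestrus), at 373 to 429 CPM, and DE and PE. Granulosa markers were at 6590 to 7550 CPM in Fshb(-/-) against 7670 to 9080 CPM in WT and at 4520 to 4930 CPM against 6320 to 7510 CPM in the rescue. Fshb(+/-), where Runx2 was high, had 5550 to 5940 CPM, below Fshb(-/-). KO (anestrus), at 4020 to 4590 CPM, overlapped with DE (3230 to 7690 CPM), PE (2770 to 7720 CPM) and E (4060 to 5190 CPM). Members of this list moved both ways. In Fshb(-/-) against WT, Amh was higher (926 to 1000 against 206 to 337 CPM) and Inhba lower (30.4 to 41.4 against 497 to 1180 CPM). No luteal marker was at 0 throughout, and the part of these lists in the Runx2 result was not tested. In whole ovaries, fewer cells of a type and less RNA per cell cannot be told apart.

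Within groups, luteal markers differed in how far they spread beside Runx2. Ptgfr was at 548, 559 and 7.31 CPM in WT, so its low library was also the low one for Runx2. In PE, where Runx2 was at 30.8, 121, 19.2 and 10.4 CPM, the luteal sum was at 7430, 10900, 7060 and 4630 CPM, in the same order. Ptgfr, with 174 to 240 CPM in these libraries, had a narrow range, while Star ran from 133 to 960 CPM, Prlr from 151 to 746 CPM and Sfrp4 from 224 to 701 CPM. Sfrp4 was highest in PE library 1 and Ptgfr in PE library 3, whereas Runx2 was highest in PE library 2. These markers were named after their values were seen. The sum of oviduct markers was 11.3 to 19.1 CPM in the 3 E libraries with the highest Runx2 and 3370 to 5790 CPM in the 4 PE libraries.

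**Figure D3:**
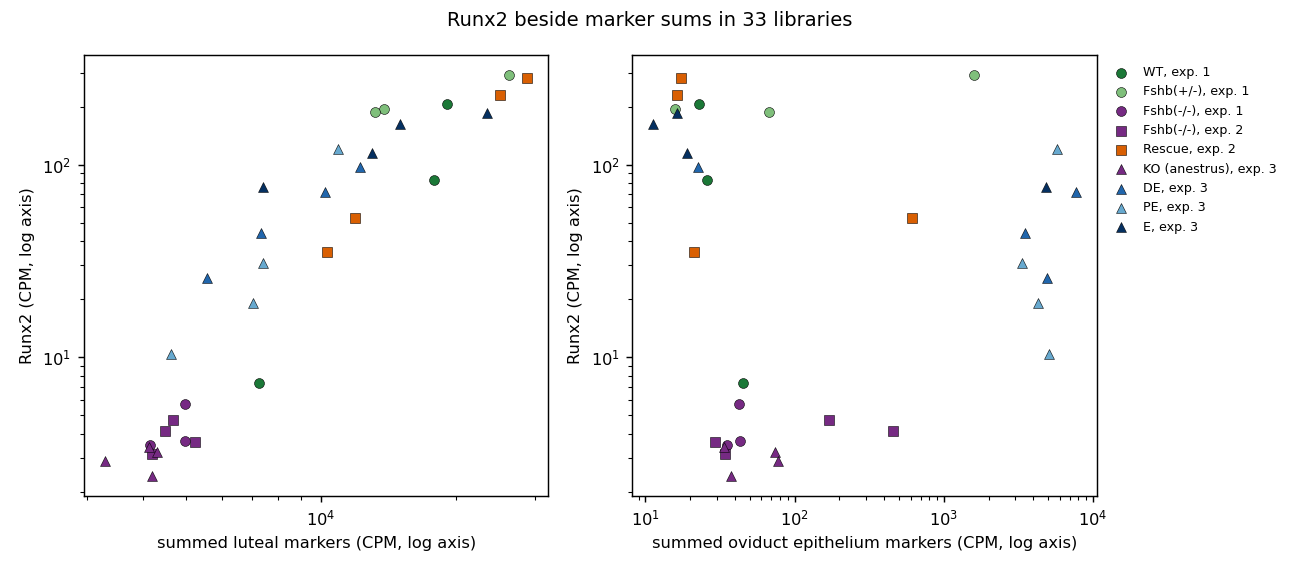
Runx2 level (CPM, y axis) against the summed level of 10 luteal markers (left) and 11 oviduct epithelium markers (right) in 33 libraries, all axes logarithmic; colours are groups and symbols are experiments. Libraries labelled Fshb(-/-) or KO (anestrus) sit at the lower left of the luteal panel, at 5240 CPM of luteal markers or less, while in the oviduct panel PE libraries with 10.4 to 121 CPM of Runx2 all lie at 3370 CPM of oviduct markers or more.

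Runx3, known for its role in lymphocytes and sensory neurons, was the scarcest of the 4 genes. In experiment 1 it was at 12.1, 8.90 and 2.85 CPM in WT, at 2.63, 5.63 and 23.5 CPM in Fshb(+/-) and at 1.58, 1.61 and 2.52 CPM in Fshb(-/-). The Fshb(-/-) libraries lay below all others, by a small margin. Its change against WT was -2.05 ± 0.84 (edgeR, adjusted p = 0.17) and against Fshb(+/-) -2.47 ± 0.84 (adjusted p = 0.081), neither of which passed. Fshb(+/-) minus WT was 0.41 (95% interval -1.37 to 2.20, adjusted p = 0.89) and was turned to -0.94 by leaving out Fshb(+/-) library 3.

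In experiment 2, Runx3 was at 0.56, 0.46, 1.47 and 1.24 CPM in Fshb(-/-) and at 1.72, 1.29, 2.96 and 3.44 CPM in the rescue. The ranges overlapped only in that rescue library 2 lay below Fshb(-/-) library 3. The change of 1.32 ± 0.45 had an adjusted p of 0.05 in edgeR, just short of the threshold, and passed without Fshb(-/-) library 3 (1.64, adjusted p = 0.04), without rescue library 2 (1.53, 0.03) and with DESeq2 (1.33, 0.023).

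In experiment 3, Runx3 was at 0.60, 0.64, 0.75 and 0.74 CPM in KO (anestrus) and at 1.23, 3.25, 0.71 and 1.57 CPM in E. E library 3 lay within the KO (anestrus) range and E library 2 well above the rest. Runx3 rose in E by 1.3 ± 0.41 (edgeR, adjusted p = 0.041). It had only 8 to 9 counts a library in KO (anestrus) and 9 to 51 in E. In experiment 3 it thus passed the filter on low counts mainly through the cycling libraries, where it was higher. The call ended without E library 2, when the change was 0.76 (adjusted p = 0.17), without E library 4 and without any one KO (anestrus) library. In DE, at 0.99 to 1.86 CPM, the change was 0.94 (95% interval 0.05 to 1.82, adjusted p = 0.11), and in PE, at 0.75 to 1.39 CPM, it was 0.74 (-0.15 to 1.64, adjusted p = 0.18). Lymphocyte markers, summed over 13 genes, were low in all 9 groups (16.8 to 49.4 CPM), 2 of the 13 staying under 1 CPM in every library.

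Runx1, known for its role in blood stem cells and in granulosa cells, did not pass the test in any of the 10 comparisons. The other 30 libraries held 30.2 to 71.6 CPM, and 3 libraries stood apart: Fshb(+/-) library 1 at 199 CPM, PE library 2 at 123 CPM and E library 4 at 187 CPM. The other libraries of these groups were at 62.5 and 46.1 CPM, at 32.2, 41.0 and 34.2 CPM and at 53.1, 50.8 and 68.3 CPM. One high library per group thus carried the group means of 102 ± 83.8, 57.7 ± 44.0 and 89.8 ± 65.3 CPM.

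Runx1 was at 69.7, 57.2 and 54.8 CPM in WT and at 71.6, 48.7 and 52.9 CPM in Fshb(-/-), ranges that overlapped almost fully. The log2 difference was -0.07 (95% interval -1.21 to 1.07; edgeR, adjusted p = 0.95). In experiment 2 it was at 56.0, 50.6, 56.2 and 50.9 CPM in Fshb(-/-) and at 51.4, 53.5, 37.7 and 43.6 CPM in the rescue. The difference was -0.20 (95% interval -0.44 to 0.04, adjusted p = 0.18). The rescue libraries with the least Runx1, 3 and 4, were those with the most Runx2.

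In experiment 3, Runx1 was at 49.9, 46.9, 52.5 and 53.2 CPM in KO (anestrus) and at 39.7, 56.5, 47.7 and 30.2 CPM in DE, with a difference of -0.22 (95% interval -1.21 to 0.78, adjusted p = 0.76). E minus KO (anestrus) was 0.83 (-0.17 to 1.82, adjusted p = 0.23) and PE minus KO (anestrus) 0.19 (-0.80 to 1.18, adjusted p = 0.78). The sign of the PE difference rested on PE library 2, without which it was -0.50, and without Fshb(+/-) library 1 the difference of Fshb(+/-) from WT went from 0.76 to -0.16.

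Cbfb, the partner subunit, was the steadiest of the 4 genes. In experiment 1 it was at 106, 106 and 103 CPM in WT, at 117, 119 and 80.7 CPM in Fshb(+/-) and at 91.1, 74.3 and 83.3 CPM in Fshb(-/-). The Fshb(-/-) libraries lay below the WT ones, and the difference of -0.34 ± 0.15 did not pass (edgeR, adjusted p = 0.19). In experiment 2 it was at 136, 134, 140 and 145 CPM in Fshb(-/-) and at 160, 160, 151 and 159 CPM in the rescue, without overlap. Cbfb rose 1.13-fold in the rescue, by 0.18 ± 0.04 on the log2 scale (edgeR, adjusted p = 0.011), a small change between tight groups that passed under every alternative run, with an adjusted p of up to 0.039.

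In experiment 3, Cbfb was at 148, 147, 140 and 145 CPM in KO (anestrus), at 127, 168, 180 and 129 CPM in DE, at 142, 136, 138 and 108 CPM in PE and at 178, 175, 157 and 188 CPM in E. The E libraries lay above all KO (anestrus) and all PE libraries. The differences were 0.27 ± 0.11 (edgeR, adjusted p = 0.12) and 0.41 ± 0.11 (adjusted p = 0.19), and neither passed. With the libraries DE 3 and E 3 left out, both passed, at 0.35 (adjusted p = 0.03) and 0.45 (adjusted p = 0.0091). DE minus KO (anestrus) was 0.06 (95% interval -0.19 to 0.30, adjusted p = 0.74) and PE minus KO (anestrus) -0.14 (-0.39 to 0.10, adjusted p = 0.35).

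Levels were compared between genes only per kilobase (kb) of annotated transcript. With the longest coding transcript of each gene, Cbfb had the highest level of the 4 in all 9 groups, from 28.7 ± 2.91 CPM per kb (SD, n = 3) in Fshb(-/-) of experiment 1 to 60.4 ± 4.38 CPM per kb (n = 4) in E. Runx1 was at 7.42 to 17.5 CPM per kb in group means, Runx2 at 0.461 to 34.8 and Runx3 at 0.176 to 2.72. In Fshb(+/-), Runx2 (34.8 ± 9.12 CPM per kb) and Cbfb (36.5 ± 7.46 CPM per kb) did not differ beyond their spread. With the median coding transcript length, which is much shorter than the longest for Runx1 and Runx2, the mean of Runx2 lay above that of Cbfb in WT, Fshb(+/-), the rescue and E. In Fshb(+/-) the values were 126 ± 32.9 against 37.7 ± 7.71 CPM per kb. The difference lay within the SD of Runx2 in WT (55.4 ± 56.1 against 37.5 ± 0.623), the rescue (83.8 ± 69.5 against 56.3 ± 1.59) and E (75.3 ± 27.2 against 62.4 ± 4.53). The mean of Runx1 lay above that of Cbfb in Fshb(+/-) (51.6 ± 42.2 against 37.7 ± 7.71 CPM per kb) and at a similar level in Fshb(-/-) of experiment 1 (29.1 ± 6.14 against 29.7 ± 3.01). The order of the genes in those groups depends on the transcript length used.

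The make-up of the RUNX family also differed between groups. Of the summed Runx1, Runx2 and Runx3 level per kb of longest transcript, Runx1 made up 89.2% ± 3.66 (SD, n = 3) and 91.5% ± 2.10 (n = 4) in Fshb(-/-) of experiments 1 and 2 and 93.1% ± 0.824 (n = 4) in KO (anestrus). Runx2 made up 6.21%, 6.07% and 4.98% there. It made up 43.3% ± 29.9 in WT, 64.5% ± 15.8 in Fshb(+/-), 62.7% ± 24.4 in the rescue, 52.2% ± 16.1 in DE, 35.3% ± 12.7 in PE and 58.4% ± 19 in E. The lowest Runx2 share outside the low groups was 10.2%, in a WT library, against a highest of 8.38% within them. These shares follow from the Runx2 levels above and add no separate test.

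**Figure D4:**
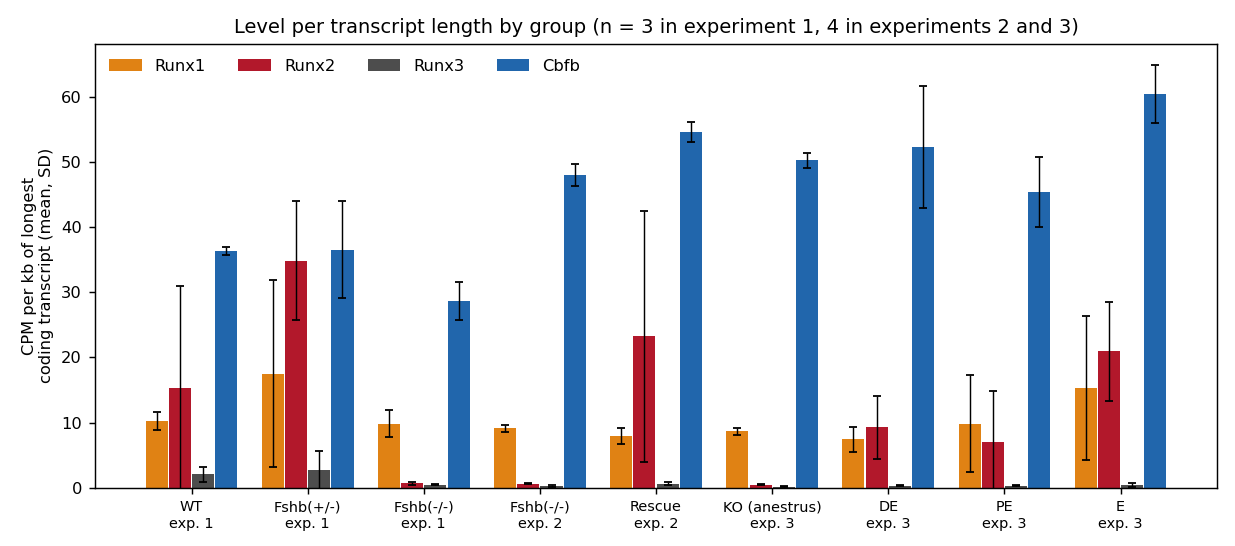
Mean level of Runx1, Runx2, Runx3 and Cbfb in CPM per kb of longest coding transcript (y axis) in the 9 groups; error bars are SD. Cbfb is highest throughout, from 28.7 to 60.4, while Runx2 runs from 0.461 in KO (anestrus) to 34.8 in Fshb(+/-).

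The genes most like each member were taken as the 5 with the highest Pearson correlation of log2(CPM + 0.5), centred within each experiment, over 33 libraries and among 14031 protein-coding genes. These values are a description, since the libraries share groups and depth. The genes most like Runx2 were Sgk1, a serum and glucocorticoid regulated kinase (r = 0.98), and Gpr141, an orphan receptor, Kcnab3, a potassium channel subunit, Idh1, the cytosolic isocitrate dehydrogenase, and Rab27a, a vesicle-docking GTPase (r = 0.97 each). Sgk1 was at 137, 188, 419 and 490 CPM in the rescue and at 29.5 to 33.5 CPM in Fshb(-/-) of experiment 2, so its libraries followed the order of Runx2. In WT it was at 233, 258 and 28.5 CPM, again low in library 3.

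Runx1 was most like Slc4a3, an anion exchanger (r = 0.90), Ugdh, which makes the sugar precursor of hyaluronan (0.87), Smarca1, a chromatin remodelling ATPase (0.87), Dok7, an adaptor of the neuromuscular synapse (0.86), and Ermp1, an endoplasmic reticulum peptidase (0.85). All 5 were at their group's highest in the same 3 libraries as Runx1. Slc4a3, for example, was at 119 CPM in Fshb(+/-) library 1 against 47.1 and 40.4 CPM in the other 2. In experiment 2, where no library stood apart, r was between -0.28 and 0.67. Summed granulosa markers in them were 5940, 3220 and 4060 CPM, within or at the edge of the range of their groups (5550 to 5940, 2770 to 7720 and 4060 to 5190 CPM).

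Runx3 was most like Cyyr1, which encodes a membrane protein (r = 0.91), the actin nucleation gene Actr2, the endocytosis gene Snx9 and Rnf11, a ubiquitin ligase gene (0.89 each), and the formin gene Fmnl3 (0.88). Cbfb was most like Trim35 (0.86), Ttyh3 (0.83), Fbxl18 (0.82), Pcgf3 (0.81) and Unc5b, a netrin receptor gene (0.80). No gene appeared in more than 1 of the 4 groups of 5.

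**Figure D5:**
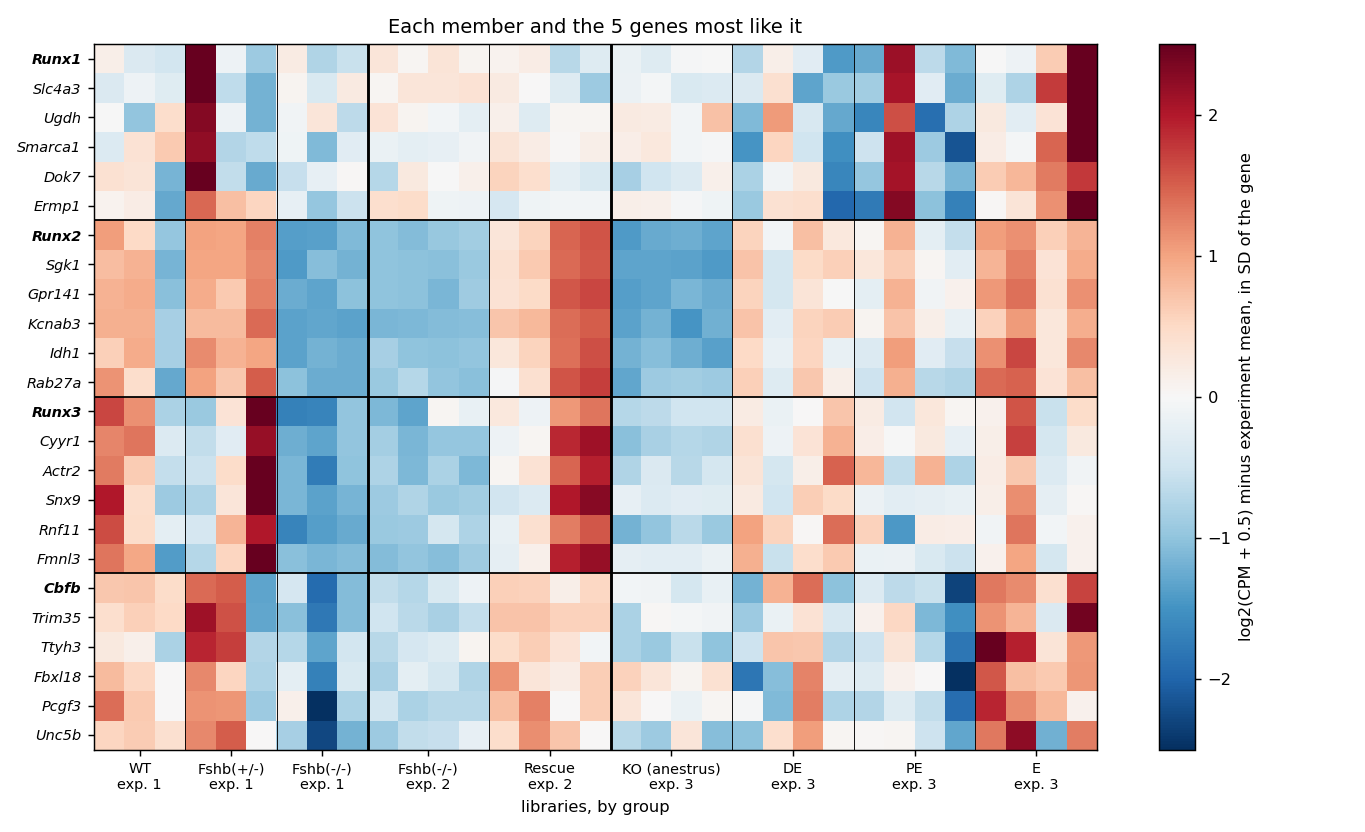
Log2(CPM + 0.5) minus the mean of the experiment, in SD of each gene (colour), for each of the 4 genes (bold) and the 5 genes most like it, in 33 libraries ordered by group. The Runx2 block is low in all libraries labelled Fshb(-/-) or KO (anestrus), whereas the Runx1 block is high in 3 single libraries, Fshb(+/-) 1, PE 2 and E 4.

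Of 25 listed cofactors and partners of RUNX proteins, all were tested. In Fshb(-/-) against WT none rose and 2 fell, beside 7.87% of all genes called. The 2 were Tle3 (-0.71 ± 0.16; edgeR, adjusted p = 0.032) and Tle2 (-1.51 ± 0.37, adjusted p = 0.046), which encode Groucho-type corepressors. The Tle3 call ended without any one of the 6 libraries and the Tle2 call without 5 of them. Against Fshb(+/-), 1 rose, Runx1t1, and 3 fell, Tle2, Tle3 and Tle5, beside 17.0% of all genes called. In the rescue 6 rose and 6 fell, beside 31.9% of all genes called. Hipk2, a kinase that phosphorylates RUNX proteins, rose by 0.64 ± 0.08 (adjusted p = 0.00038), and Tle3 rose by 0.55. Tle4 fell by 0.46 and Runx1t1, a corepressor gene known as the partner of RUNX1 in leukaemic fusions, fell by 0.63.

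Against KO (anestrus), 2 cofactors rose and 6 fell in DE, none rose and 7 fell in PE, and 3 rose and 5 fell in E. These 8, 7 and 8 of 25 genes stand beside 25.1%, 33.8% and 18% of all genes called, so the counts in DE and PE lie near the background. Runx1t1 fell in each, by 1.0, 1.16 and 1.23 on the log2 scale. Hdac4, which encodes a deacetylase known to restrain RUNX2 in cartilage, fell by 0.58, 0.64 and 0.56, and Tle4 fell by 0.72, 0.77 and 0.69. These 3 genes have the smallest p-values of the list in every stage. The list's median change lay between -0.22 and 0.12 over the 10 comparisons, against -0.02 to 0.01 for all genes, and this difference was not tested.

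The 14 genes linked to RUNX factors in rodent granulosa or luteal cells, 13 of them tested, moved in both directions. In Fshb(-/-) against WT 2 rose, the hyaluronan link protein gene Hapln1 (2.42 ± 0.28; edgeR, adjusted p = 0.0025) and the prostaglandin synthase gene Ptgs2 (2.18 ± 0.47, adjusted p = 0.026), and 1 fell, Cyp11a1, whose product makes pregnenolone (-1.43 ± 0.34, adjusted p = 0.038). The Ptgs2 and Cyp11a1 calls each ended in 5 of 6 fits without 1 library. Against Fshb(+/-) 1 rose and 4 fell. All genes called were 7.87% against WT and 17.0% against Fshb(+/-). In the rescue 7 rose and 2 fell, beside 31.9% of all genes called. Ptgs2 fell by 2.90, from 4.71 ± 0.537 to 0.622 ± 0.291 CPM, and Ptgds, a prostaglandin D synthase gene, fell by 4.04. Ptgfr rose by 8.48 ± 0.92 and Sfrp4 by 7.54 ± 0.69. Sfrp4, Ptgfr, Cyp11a1, Lhcgr and Prlr are also on the luteal marker list, so these counts are not independent of it.

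Against KO (anestrus), 4 of these genes rose and 2 fell in each of DE, PE and E, beside 25.1%, 33.8% and 18% of all genes called. Ptgfr, Sfrp4, Cyp11a1 and the cell cycle regulator gene Rgcc rose, and Ptgds and Hapln1 fell. The Cyp11a1 call in DE and the Rgcc call in PE each ended in 4 of 8 fits without 1 library, with an adjusted p of up to 0.065 and 0.095. Ptgfr rose by 8.11, 7.41 and 8.47 and Ptgds fell by 4.08, 5.06 and 4.2 on the log2 scale. Ptgs2 ran from 3.91 to 5.72 CPM in all PE and KO (anestrus) libraries and was at 40.02 CPM in E library 3, the one rich in oviduct markers. The median change of the list was -0.69 in Fshb(-/-) against WT, 0.64 in the rescue and 0.01, 0.07 and 1.12 in DE, PE and E.

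Of 15 genes known as RUNX2 targets in the skeleton, 11 were tested in experiments 1 and 2 and 13 in experiment 3. The bone sialoprotein gene Ibsp moved opposite to Runx2. It rose in Fshb(-/-) against WT (3.54 ± 0.37, edgeR, adjusted p = 0.0015). It fell by 3.41 in the rescue and by 1.99, 2.23 and 2.75 in DE, PE and E. Its low side was near the floor, at 4 to 9 counts a library in WT and 1 to 12 in the rescue. Fshb(-/-) held 50 to 86 and 48 to 104 counts in experiments 1 and 2. Ibsp thus passed the filter on low counts mainly through the groups where it was high, and its changes are a description only. Phex, a bone endopeptidase gene, fell in Fshb(-/-) (-3.31 ± 0.50, adjusted p = 0.0068), as did Spp1, which encodes osteopontin (-2.62 ± 0.50, adjusted p = 0.019), and Vegfa, an angiogenic factor gene (-1.23 ± 0.26, adjusted p = 0.025). The Spp1 and Vegfa calls ended in 4 and 5 of 6 fits without 1 library. In the rescue Phex rose by 2.05, Spp1 by 2.14 and Vegfa by 1.24. In DE, PE and E 4, 3 and 4 rose and 1 fell, beside 25.1%, 33.8% and 18% of all genes called. Vegfa rose by 1.54, 1.38 and 1.97, and Sp7, which encodes the bone factor osterix, rose by 3.15, 4.4 and 3.47. Sp7 had only 1 to 2 counts a library in KO (anestrus), against 7 to 31 in DE, 6 to 62 in PE and 3 to 36 in E. It thus passed the filter on low counts through the cycling libraries, where it was higher, and the size of its rise is uncertain. The Sp7 calls in DE and E ended in 5 and 6 of 8 fits without 1 library, and Ibsp, at a mean of 0.265 to 1.88 CPM in experiment 3, lost its DE call in 4 of 8. The Phex call in DE ended in 7 of 8 such fits and the Spp1 call in E in 5 of 8. The median of the tested genes was -0.28 in Fshb(-/-) against WT, 0.64 in the rescue and 1.02, 0.83 and 0.44 in the 3 stages.

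Of 13 genes known as RUNX targets in blood cells, 8 were tested. In Fshb(-/-) against WT none rose and 2 fell, Cebpa, a differentiation factor gene (-1.01 ± 0.13; edgeR, adjusted p = 0.0034), and Zbtb7b, a T-cell fate gene (-0.79 ± 0.12, adjusted p = 0.0075). In the rescue 3 rose, Cebpa by 1.04, Zbtb7b by 0.50 and Gfi1 by 3.21, the last from 0.162 to 1.51 CPM. In DE 4 rose and 1 fell, in PE 5 rose and none fell, and in E 2 rose and 1 fell. All genes called were 7.87% in Fshb(-/-) against WT, 31.9% in the rescue and 25.1%, 33.8% and 18% in DE, PE and E. Both genes raised in E lost their call in fits without 1 library, Zbtb7b in 7 of 8 (adjusted p up to 0.11) and Gfi1 in 4 of 8 (up to 0.073), and Cebpa lost its calls in DE and PE in 2 of 8 each. The gene that fell in DE and E was Csf1r, which encodes a macrophage growth factor receptor (-0.55 and -0.58). None of the genes of the 4 lists was called between Fshb(+/-) and WT or between cycling stages. Of all genes, 0.0871% were called between Fshb(+/-) and WT and 0.0% between cycling stages, so this tells nothing particular about the lists.

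The RUNX motif was found in 7 of 16 promoters of the granulosa- and luteal-linked genes (43.8%), in 5 of 16 of the skeletal targets (31.2%), in 2 of 11 of the blood cell targets (18.2%) and in 3 of 28 of the cofactors (10.7%), beside 22.4% of all promoters. These are shares of few windows and were not tested.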

How the data were processed

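RNA was sequenced from 33 mouse ovary libraries. The authors deposited expected counts per gene, estimated with Salmon on GRCm38 per the submitters' processing notes, which also name DESeq2 and give no versions. In each library 10.5% to 20.1% of the values were not whole, and all were rounded. Estimated counts can split reads between overlapping or similar genes. Of 54347 identifiers, 54094 matched the GENCODE annotation and 253 had no symbol. Totals ran from 10085367 to 23700051 counts a library, and intervals cover the spread between libraries. Each experiment was fitted apart in edgeR 4.0.16 (R 4.3.3; filterByExpr, TMM, robust quasi-likelihood), with Benjamini-Hochberg adjustment over all tested genes, a threshold of 0.05 and 10 contrasts. The difference of rescue and WT was fitted over experiments 1 and 2. Intervals at 95% use the t distribution. The fit was tested on simulated counts. Replicates of a group differed beyond sampling noise in all 45 pairs. Alternatives were DESeq2 1.42.0, median-of-ratios factors, other filters on low counts, a fit of only the 2 groups compared, a replicate block and each library left out. Named list genes are, per list and main comparison, up to 4 with the smallest p, plus the called genes where a count is 5 or fewer. Other genes named were chosen after their values were seen. Like genes are the 5 with the highest correlation among protein-coding genes with a mean of at least 1 CPM. Members and lists were chosen with earlier results of these data known. Promoters are from RefSeq. The result of 1 gene of the skeletal list is not reported here.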

Additional observations from a re-analysis of the deposited data

Results flagged for a closer look

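For Runx1, 1 library stood far from the other 3 in 2 groups of 4 libraries, the only ones among 24 tests over all 4 genes: PE library 2 at 123 CPM, with a gap to its neighbour of 0.904 of the group's range, and E library 4 at 187 CPM, with a gap of 0.872. The limit for 4 libraries is 0.829, and chance passes it in about 1 in 20 groups. Fshb(+/-) library 1, at 199 CPM, belongs to a group of 3 and was not tested.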

How the results depend on the processing

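Runx2 stayed called in the rescue and in DE, PE and E against KO (anestrus) under every alternative run, and its direction held in all 10 comparisons. With DESeq2, Runx3 passed in Fshb(-/-) against Fshb(+/-) (-2.48), against WT (-2.06) and in the rescue (1.33), Cbfb passed in E minus PE (0.41), and the number of called genes was 362 for Fshb(+/-) minus WT, 2357 for Fshb(-/-) minus WT, 8 for DE minus E and 363 for E minus PE. With median-of-ratios factors Runx3 passed in the rescue (1.33). With no filter on low counts Runx2 lost its call against WT (-4.52, adjusted p = 0.13) and Runx3 in E (1.31, adjusted p = 0.076). In a fit of only the 2 groups compared, Runx2 lost its call against WT (-4.52, adjusted p = 0.1), while Cbfb in E (0.30) and Runx3 in Fshb(-/-) against WT (-2.05) passed.

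Replicate numbers did not pair the libraries: deviations of same-numbered libraries correlated between -0.75 and 0.25, and in 0 of 10 comparisons was every pair above 0.1. With the replicate block, Cbfb and Runx3 in Fshb(+/-) minus WT turned to -0.01 and -0.03, Runx2 against WT (-4.24) and Runx3 in E (1.25) were not called, Runx3 in the rescue (1.38) was, and Fshb(+/-) minus WT had 7 called genes. Without DE 3 and E 3, chosen after seeing the data, Cbfb passed in E (0.35) and in E minus PE (0.45), and DE minus E and E minus PE had 2750 and 2656 called genes. The causes of these changes were not tested.

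Leaving out each library in turn gave these ranges for Fshb(+/-) minus WT: Cbfb -0.09 to 0.17, Runx1 -0.16 to 1.11, Runx2 0.63 to 2.31, Runx3 -0.94 to 0.88 and 9 to 14 called genes. For Fshb(-/-) minus Fshb(+/-) they were -0.50 to -0.26 for Cbfb, -1.18 to 0.09 for Runx1, -5.96 to -5.46 for Runx2, -2.92 to -1.11 for Runx3 and 1362 to 2581 called genes. For Fshb(-/-) minus WT they were -0.25 to 0.05 for Runx1, -5.07 to -3.39 for Runx2 and 456 to 1031 called genes. Runx3 in the rescue ran from 1.09 to 1.64. In experiment 3 the ranges were -0.61 to 0.28 (Runx1) and -0.01 to 0.31 (Runx3) for DE minus PE, -0.01 to 1.32 (Runx1), 1.24 to 2.74 (Runx2) and 0.33 to 0.45 (Cbfb) for E minus PE, and -0.62 to 0.18 (Runx3) for DE minus E. Runx1 in PE minus KO (anestrus) ran from -0.50 to 0.44 and Runx3 in E minus KO (anestrus) from 0.76 to 1.6. Called genes numbered 0 to 1039 for DE minus E, 2422 to 5787 for DE minus KO (anestrus), 1920 to 2779 for E minus KO (anestrus) and 0 to 1847 for E minus PE. Among named list genes and levels, 917 values kept their side of the threshold, 107 lost their call with the direction kept, and 3 levels moved with the transcript length. Depth limits Runx3 most, at 8 to 361 counts a library.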
